A study of Setaria viridis with 13 samples.

Results

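The tip and the base of leaf 3 are 2 of the 13 tissue samples that were sequenced from wild-type green millet (Setaria viridis, accession A10), and they were chosen here by their labels. Both were dissected 10 days after germination, at the stage labelled V3, from hydroponic plants kept in 8 h days at 28 °C and 16 h nights at 22 °C. The base was taken above the ligule, the fringe where leaf sheath meets leaf blade, and the tip at the far end of leaf 3. Polyadenylated RNA of each part was read in 3 biological replicates from plants grown at different times, and each part has a single column of values with the replicates merged. No difference could therefore be set against replicate error, and sizes are described with no test.

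A grass leaf grows from dividing cells at its bottom, so that along a blade the cells nearest the ligule are the youngest and those at the tip are the oldest. In C4 grasses such as green millet the division of photosynthesis between mesophyll and bundle sheath cells is set up along this axis as the blade emerges, and ageing of a grass blade usually starts at its tip. Other parts of leaf 3 were also sampled at V3, a lower section below the ligule of leaf 2 and a mid section above that ligule. The files do not pair gene IDs with names, so the labelled leaf parts could not be checked against marker genes and no gene below is given a role. In dissected tissue of mixed cell types, fewer cells of a type and less RNA per cell cannot be told apart.

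Values are FPKM (fragments per kilobase, relative to a sample's total), and differences are on the scale of log2(FPKM + 1). Each of the 35471 genes was represented by its transcript with the highest mean FPKM. A gene was tested for size if it reached an FPKM of 5 in the tip or the base, which 8592 genes (24.2%) did, and 6623 of these reached it in both. A gene was called tip-higher or base-higher when it differed by at least 2. The depth behind each value is unknown, since the files give no counts.

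Tip and base were alike over most genes. Of the 8592 tested genes, 4453 (51.8%) differed by less than 0.5 and 2575 (30.0%) by 0.5 to 1. The median of tip minus base was 0.23, with quartiles of -0.26 and 0.58, so the bulk of the genes stood slightly above equality in the tip. After rescaling by median-ratio factors, which brings widely expressed genes to the same level in every sample, this median was 0.03. The factors shifted the tip by -0.21 against the base, and the base had the lowest factor of the 13 samples (log2 of -0.54, against -0.33 in the tip).

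Differences of at least 2 were found for a small fraction of the tested genes, more of them lower in the tip. By the size rule 155 genes were tip-higher (1.80% of those tested) and 240 were base-higher (2.79%), together 4.60%. The tip-higher share of the called genes was 39.2% in the deposited values and 30.2% once rescaled. Base-higher genes were the more numerous at each called size up to 5, and the counts were equal beyond it. Differences of 2 to 3 were found for 107 tip-higher and 161 base-higher genes, those of 3 to 4 for 29 and 48, those of 4 to 5 for 11 and 23, and those of 5 or more for 8 and 8. The smallest called difference was 2.00 in either direction, and the nearest gene outside was at 1.99 in either direction. In the deposited values, whose median difference was 0.23, differences of 0.5 to 1 leaned the other way, with 1835 genes higher in the tip and 740 lower. Differences of 1 to 2 were nearly balanced as deposited, at 604 higher and 565 lower. These leans depended on scaling. Once rescaled, 577 genes were higher in the tip by at least 1 and 1197 were lower.

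**Figure D1:**
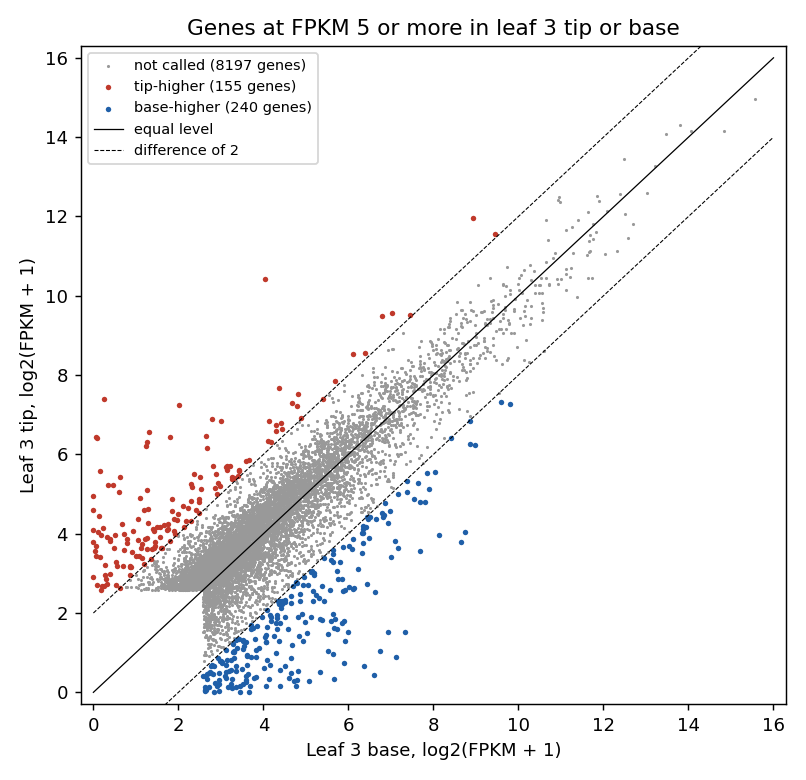
Each point is a gene at FPKM 5 or more in leaf 3 tip or base, with its log2(FPKM + 1) in the base on the x axis and in the tip on the y axis. Red points are the 155 tip-higher genes, blue points the 240 base-higher genes and grey points the uncalled genes, which lie in a band around the line of equal level. The cut corner at the lower left is the FPKM minimum of 5.

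The called genes were of moderate abundance, and the 3 that reached an FPKM of 1000 lay on the tip side. The tip-higher genes had a median FPKM of 21.6 in the tip and 1.83 in the base, and the base-higher genes had 24.2 in the base and 2.02 in the tip. An FPKM of 1000 in the higher part was reached by 3 tip-higher genes and by 0 base-higher genes, whose highest value was 884. An FPKM of 100 was reached by 22 and 34, which is 14.2% of either set, and an FPKM of 20 by 79 (51.0%) and 131 (54.6%). The lower part was not silent for most of these genes. It was under an FPKM of 1 for 51 tip-higher genes (32.9%) and 84 base-higher genes (35.0%), and listed at 0 for 5 and 2. An FPKM of 5 was met in the lower part as well by 44 tip-higher genes (28.4%) and 72 base-higher genes (30.0%).

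The called genes together made up little of the RNA. Of the summed FPKM, tip-higher genes held 2.67% in the tip and 0.386% in the base, and base-higher genes 2.24% in the base and 0.299% in the tip. The 10 most abundant genes alone held 22.9% of the sum in the tip and 24.8% in the base, and 7 of them were shared. Of the 100 most abundant genes of each part 79 were shared, and of the 1000 most abundant 800 were.

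The most abundant genes outside the calls show how the top of the 2 profiles compared. Si020856m.g was at FPKM 32093 in the tip and 48644 in the base, the highest value of any gene in either part. Across the other samples it ran from 98.0 in the root to 35363 in the V3 bulk shoot. Si003882m.g was at 18178 in the tip and 29327 in the base, and elsewhere from 39.2 in the vegetative meristem to 18305 in the V3 bulk shoot. Both were highest of all samples in the base and differed by -0.60 and -0.69 between tip and base, short of the size rule.

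At the tip, the gene with the largest difference was Si036679m.g, at FPKM 168 in the tip and 0.197 in the base, a log2 difference of 7.14. With a base value this low, the size depended on the constant added to FPKM. It was 9.14 with 0.1 added and 5.06 with 5 added. Along leaf 3 the gene was at 0.717 in the lower section and at 4.46 in the mid section. It was highest in the root (275), at 10.3 to 12.9 in the 3 bulk shoots and at 0.569 in the coleoptile. It was thus high in the tip and the root and at 12.9 or less in all other samples, with its lowest value of the 13 in the base. The most abundant tip-higher gene was Si023761m.g, at 3955 in the tip and 490 in the base, a difference of 3.01. The lower section was at 104 and the mid section at 638. The tip was its highest sample, followed by the bulk shoots of V5 (2875), V3 (2368) and R (1686). It was also above 1000 in both meristems (1447 vegetative and 1322 inflorescence) and in the post-anthesis panicle (1074), but at 125 before anthesis and 0.705 in the coleoptile.

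At the base, the gene with the largest difference was Si038068m.g, at FPKM 137 in the base and 0.840 in the tip, a log2 difference of -6.23. This size too depended on the added constant, at -7.19 with 0.1 and -4.61 with 5. The gene's values were higher still at 316 (lower section) and 406 (mid section), so that the tip was the only leaf part where it was low. Elsewhere it was at 120 in the coleoptile and 92.7, 39.8 and 30.6 in the V3, V5 and R bulk shoots. The meristems and panicles were at 0.790 to 1.14, and the root was listed at 0. The most abundant base-higher gene was Si020834m.g, at 884 in the base and 154 in the tip, a difference of -2.51. The lower section was its highest sample (1562), with 575 for the mid section and 436 for the coleoptile. The 3 bulk shoots ran from 95.3 (R) to 364 (V5), the meristems and panicles from 48.9 to 124, and the root was at 4.17. Its tip level was seventh of the 13, within the range of shoots and close above the meristems.

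**Figure D2:**
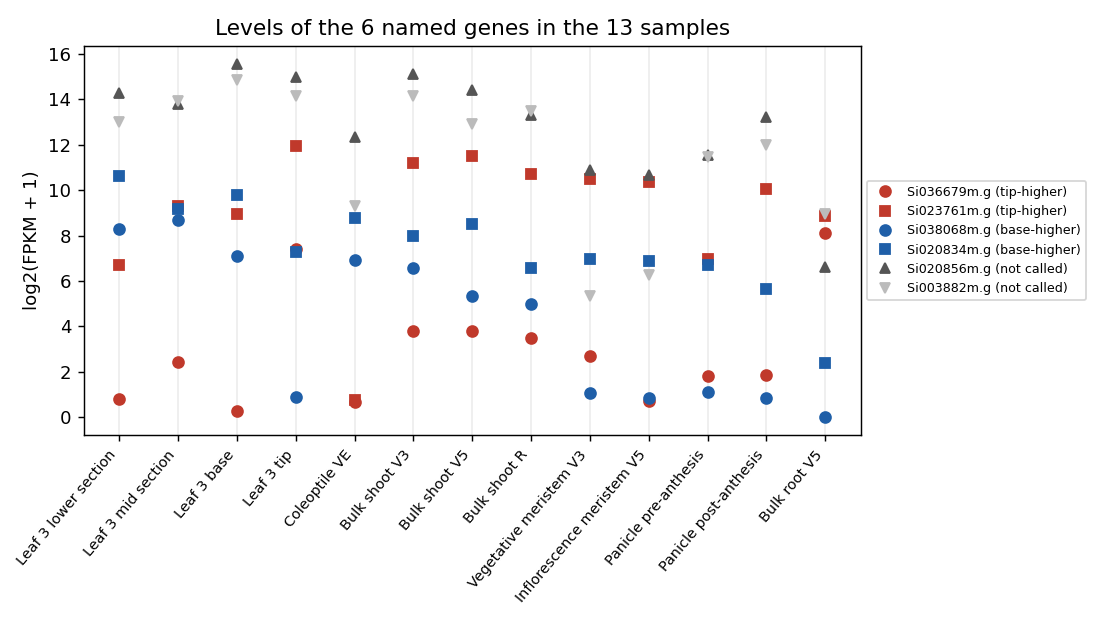
Levels in log2(FPKM + 1) on the y axis of the 6 genes named by ID, in the 13 samples on the x axis, 1 point per gene and sample with no error because replicates were merged. Both genes called base-higher (blue) are low in the tip against the other leaf parts, and Si036679m.g (red circles) is far higher in the tip and the root than in any other sample.

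Seen in all samples, the 240 base-higher genes had high levels in the lower and mid sections as well. On the log2(FPKM + 1) scale their median level was 5.59 for the lower section, 5.77 for the mid section, 4.66 for the base and 1.60 for the tip. The medians over all 8592 tested genes were 4.05, 4.03, 3.64 and 3.76 in that order. An FPKM of 5 was reached by 232 of the 240 for the lower and by 234 for the mid section (96.7% and 97.5%, against 89.7% and 90.9% of all tested). In the tip, where the rule set them low, 72 reached it. With median-ratio rescaling the same 240 genes had medians of 5.67, 5.84, 5.17 and 1.82, so the base stood nearer to the other sections but still below them. The bulk shoots had medians of 3.99 (V3), 4.27 (V5) and 4.66 (R), the coleoptile 3.94 and the meristems 3.43 and 3.44. The root was the lowest sample, at 1.40, with 107 of the 240 genes (44.6%) under an FPKM of 1 there, against 13.5% of all tested genes.

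The 155 tip-higher genes were low in the lower and mid sections as well as in the base. Their medians were 1.36 (lower section), 2.04 (mid section), 1.50 (base) and 4.50 (tip). The coleoptile was lower again, at 1.18, with 69 of the 155 (44.5%) under an FPKM of 1, against 4.38% of all tested genes. Bulk shoots were the nearest to the tip, with medians of 3.13 (V3), 3.34 (V5) and 3.83 (R), and after rescaling 3.34, 3.29 and 3.33. The panicles were at 2.43 before and 2.89 after anthesis, the root at 2.23, and the meristems at 2.27 (vegetative) and 1.82 (inflorescence). Comparisons of the tip with the mid and lower sections share the tip sample with the call, so only levels are given for them.

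**Figure D3:**
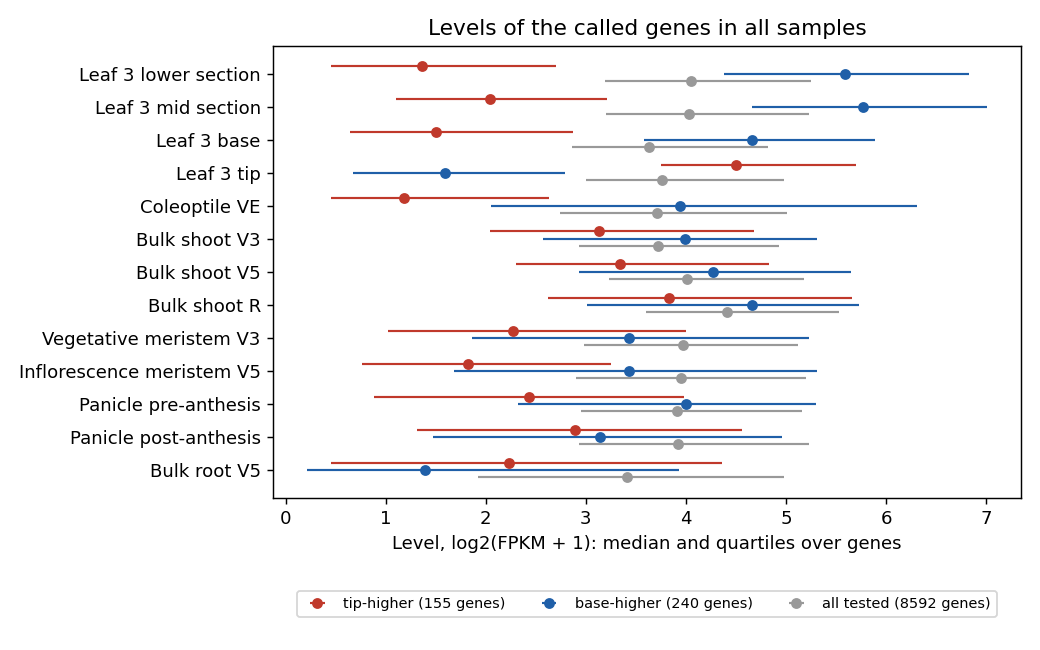
Median and quartiles over genes of log2(FPKM + 1), on the x axis, in each of the 13 samples, for the 155 tip-higher genes (red), the 240 base-higher genes (blue) and all 8592 tested genes (grey). The bars are the spread between genes, not an error. Blue points lie farthest right of grey in the 3 parts of leaf 3 other than the tip and slightly right of it in the bulk shoots, coleoptile and pre-anthesis panicle, and red points lie left of grey in every sample but the tip.

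Breadth over the other samples is given as a description. Of the 11 samples other than tip and base, a tip-higher gene reached an FPKM of 5 in a median of 5 (quartiles 3 and 8), a base-higher gene in 9 (6 and 10) and a tested gene in 10 (9 and 11). None of the 11 samples reached it for 16 tip-higher genes (10.3%), 3 base-higher genes (1.25%) and 1.23% of all tested genes. Such genes were tested only through the tip or the base. All 11 reached an FPKM of 5 for 14 tip-higher genes (9.03%), 50 base-higher genes (20.8%) and 49.4% of all tested genes. Called genes were picked for varying between samples, which bears on all these values. The tip stood above all 11 of these samples for 79 of the 155 tip-higher genes (51.0%, against 12.1% of all tested genes). The base did so for 19 of the 240 base-higher genes (7.92%, against 4.49% of all tested genes). These ranks use the very values by which the genes were called.

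The tested genes were also split by their mean log2(FPKM + 1) in those 11 samples. A gene low in all of them was tested only because tip or base was high, so the counts at low means are a description and support no lean. With a mean under 1, 15 of 38 tested genes were tip-higher and 3 base-higher. From 1 to 2, they were 35 and 21 of 371, and from 2 to 3, 45 and 41 of 1448. From 3 to 4 they were 27 and 55 of 2729, and 14 and 49 of 1853 from 4 to 5. From 5 to 6 they were 9 and 41 of 1027, and from 6 to 8 they were 8 and 29 of 803. Above 8, where 323 genes were tested, 2 were tip-higher and 1 was base-higher.

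Outside tip and base, base-higher genes mostly had their highest level in the lower or mid section of leaf 3. This was the mid section for 88 of the 240 (36.7%, against 8.26% of all tested genes) and the lower section for 60 (25.0%, against 16.7%). The coleoptile, which like the leaf is a shoot organ but sheathes the emerging shoot, was the highest for 36 (15.0%, against 3.25%). The root was highest for 18 (7.50%, against 16.2%) and a panicle for 22 (9.17%, against 13.1%). A meristem was highest for 10 (4.17%, against 21.2%) and a bulk shoot for 6 (2.50%, against 21.3%). With rescaling the mid section was highest for 91 of the same genes (37.9%, against 10.9% of all tested genes) and the coleoptile for 42 (17.5%, against 6.69%). The lower section was then highest for 58 (24.2%, against 21.8%), near the share of all tested genes.

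Grouped by that sample, whose own high median is fixed by the grouping, the base-higher genes had the following levels in the rest of the plant. The 148 that were highest in one of these leaf sections had medians of 5.78 and 5.98 in the lower and mid sections and 4.82 in the base, and 1.79 in the tip. In the bulk shoots they were at 3.70 to 4.10, and they included 24 of the 31 base-higher genes that differed by 4 or more. The 36 highest in the coleoptile had a median of 7.18 there, 5.83 in the lower section, 4.31 in the base and 1.40 in the tip, and only 0.59 in the root. The 22 highest in a panicle were also high in the R bulk shoot, at 6.02, and at 4.42 to 4.57 in the meristems. The 18 highest in the root had a median of 7.39 there, and 4.81, 5.05, 3.64 and 0.81 in the lower section, mid section, base and tip. The low level at the tip was required by the rule.

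Among tip-higher genes, bulk shoots were the most frequent place of the highest level outside tip and base. A bulk shoot was highest for 77 of the 155 (49.7%, against 21.3% of all tested genes), with 40 in the R shoot, 25 at V5 and 12 at V3. The division among the bulk shoots depended on scaling, since rescaling gave 17, 25 and 28 for R, V5 and V3. As deposited, the tip-higher shares were 25.8%, 16.1% and 7.74% in that order, against 15.7%, 4.90% and 0.652% of all tested genes. After rescaling, 2.37%, 6.16% and 3.28% of all tested genes were highest in these shoots. The root was highest for 31 genes (20.0%, against 16.2%), and after rescaling for 35 (22.6%, against 22.1%), which is near the share of all tested genes. A panicle was highest for 24 (15.5%, against 13.1%) and a meristem for 16 (10.3%, against 21.2%). The coleoptile was highest for 5 (3.23%, against 3.25%), and the lower or mid section for 2 genes (1.29%, against 25.0%).

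The tip-higher genes were grouped in the same way. The 77 genes of the bulk shoots had a median of 4.83 in the tip, 1.89 in the base, 1.96 in the mid and 1.25 in the lower section. The bulk shoots were at 3.55 to 4.05 and the root at 1.04. Of the 77, 10 differed between tip and base by 4 or more, near the share among all tip-higher genes (19, or 12.3%). The 31 root genes had medians of 5.39 in the root, 4.90 in the tip and 1.61 in the base, and were at 2.90 to 3.08 in the bulk shoots. The 24 panicle genes were at 5.36 after and 4.73 before anthesis and 5.53 in the R bulk shoot, against 4.11 in the tip. The 16 meristem genes were at 4.61 in the vegetative and 3.30 in the inflorescence meristem, with 3.88 in the tip.

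**Figure D4:**
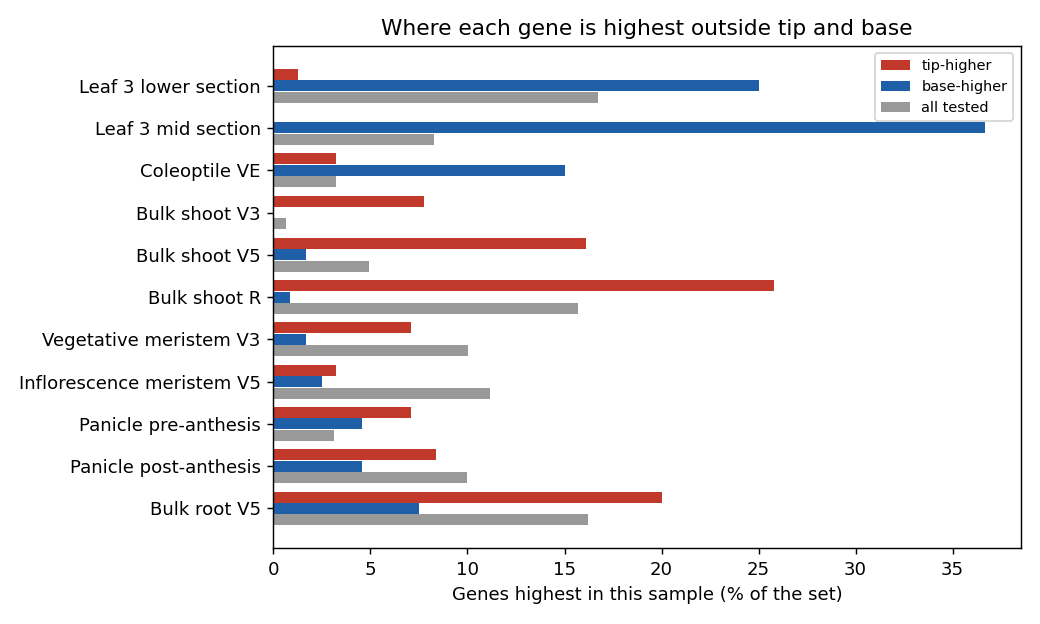
Percent of the genes of each set, on the x axis, whose highest FPKM among the 11 samples other than leaf 3 tip and base lies in the sample on the y axis, for tip-higher (red), base-higher (blue) and all tested genes (grey). The mid section leads for base-higher genes at 36.7% and holds 0 tip-higher genes. As deposited, the R bulk shoot leads for tip-higher genes at 25.8%, against 15.7% of all tested genes. With rescaling the root leads instead, for 35 of the 155 tip-higher genes, against 17 for the R bulk shoot.

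Contrasts between samples that are neither tip nor base give values that the choice of genes did not use. From the lower to the mid section of leaf 3 the tip-higher genes had a median difference of 0.40 (quartiles 0.00 and 1.05) and the base-higher genes 0.16 (-0.44 and 0.78), against 0.02 over all tested genes. By the size rule 11 tip-higher genes were higher in the mid section and 0 were lower, against 0.835% and 0.134% of the 9706 genes tested in that contrast and 0.361% and 0.0349% of the 8592 genes. The tip-higher genes above 0 numbered 114, and 38 were below, against 4390 and 4125 of the 8592 genes. Of the base-higher genes 5 were higher and 1 was lower by the size rule.

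Both sets had higher medians than all tested genes in the shoot relative to the meristem. For the V5 bulk shoot minus the vegetative meristem the medians were 1.03 for tip-higher and 0.64 for base-higher genes, and -0.12 over all tested genes. Past the size rule 36 tip-higher genes (23.2%) and 50 base-higher genes (20.8%) were higher in the shoot, against 7.83% of the genes tested in that contrast and 9.90% of the 8592 genes. Lower in the shoot were 8 and 15 (5.16% and 6.25%), against 2.32% and 1.42%. In the V5 root relative to the V5 bulk shoot the medians were -1.19 for tip-higher and -2.16 for base-higher genes, against -0.54 over all tested genes. Here 53 tip-higher genes (34.2%) and 119 base-higher genes (49.6%) were lower in the root by the size rule, against 17.5% of the genes tested in that contrast and 21.9% of the 8592 genes at FPKM 5 in tip or base. Higher in the root were 16 and 27 (10.3% and 11.3%), against 16.7% of the genes tested in that contrast and 6.24% of the 8592 genes.

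The sets went opposite ways between the panicles. For the panicle after anthesis minus the panicle before it, tip-higher genes had a median of 0.21 and base-higher genes of -0.47, against 0.03 over all tested genes. By the size rule 8 tip-higher genes were higher and 5 lower, and 4 base-higher genes were higher and 23 lower (9.58%), where 2.00% and 2.08% of the genes tested there and 0.372% and 0.780% of the 8592 genes were called. On rescaled values the genes were called anew, giving 150 tip-higher and 347 base-higher genes, and these medians were then 0.14 and -0.46. Of the base-higher genes 174 of 240 were lower after anthesis, and of the tip-higher genes 100 of 155 were higher. Among all 8592 tested genes 3981 were lower and 4528 higher. From the V5 to the R bulk shoot the medians were 0.29 for tip-higher and 0.06 for base-higher genes, against 0.35 over all tested genes. With the genes again called anew on rescaled values, they were -0.06 and -0.30, against -0.09. Their signs thus changed, with both the scaling and the genes called being different. The base-higher median was below that of all tested genes either way, and the tip-higher median only as deposited. Called higher in the R shoot were 11 tip-higher and 3 base-higher genes, with 1 and 1 lower, where 0.988% and 0.0866% of the genes tested there and 0.314% and 0.116% of the 8592 genes were called. Between the meristems, inflorescence minus vegetative, the medians were -0.11 and 0.13 against 0.03 over all tested genes. There 7 tip-higher genes were higher and 15 lower, and 4 base-higher genes were higher and 13 lower, where 0.933% and 1.29% of the genes tested there and 0.244% and 1.16% of the 8592 genes were called.

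**Figure D5:**
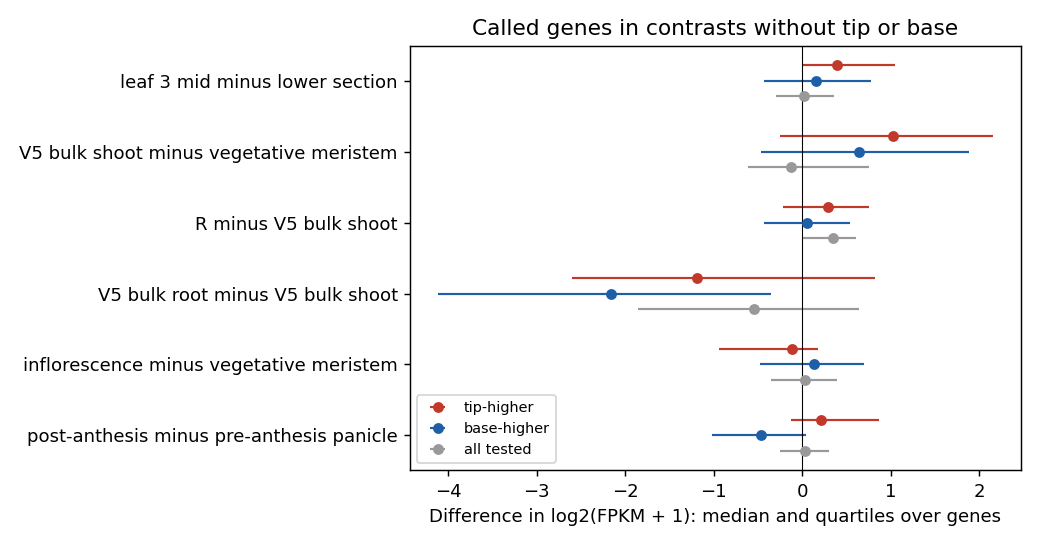
Median and quartiles over genes of the difference in log2(FPKM + 1), on the x axis, in 6 contrasts that use neither leaf 3 tip nor base, for tip-higher (red), base-higher (blue) and all tested genes (grey). The bars are the spread between genes. Red and blue lie on opposite sides of grey between the panicles, at 0.21 and -0.47, and on the same side for the V5 bulk shoot minus the vegetative meristem, at 1.03 and 0.64.

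Transcripts of the same gene gave the same direction. More than 1 annotated transcript was listed for 25 tip-higher genes (16.1%) and 46 base-higher genes (19.2%), against 26.7% of all tested genes. For 24 and 46 of them another transcript also reached an FPKM of 5 in tip or base, and in all of these every such transcript differed in the direction of the gene. The full size of 2 was reached by all such transcripts in 22 and 44 genes. Transcripts of a gene share most of their sequence, so this is no independent support.

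The deposited table of start site offsets, a signed number of nt per gene whose sign convention is not given in the sources used here, covered the base-higher genes more fully than the rest. It held 160 of the 240 base-higher genes (66.7%) and 69 of the 155 tip-higher genes (44.5%), against 42.1% of all tested genes and 13.8% of all genes. The median offset was -9 nt (quartiles -16 and 0.25) for base-higher and -8 nt (-16 and 0) for tip-higher genes, against -4 nt (-15 and 32) for all tested genes with an offset. The medians were close, and the sets differed from all tested genes mainly in the upper quartile. Offsets were negative for 71.9% of base-higher, 72.5% of tip-higher and 55.3% of all tested genes with a value, and above 100 nt for 4.38%, 2.90% and 7.94%.

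Over all 35471 genes the Spearman correlation of tip with base was 0.929, and over the 8592 tested genes it was 0.789. Both are descriptions across genes of 2 columns. Across all genes the base was nearest to the mid section (0.951) and the lower section (0.942), and next to the tip. The tip was nearest to the base, followed by the V5 bulk shoot (0.918), the V3 bulk shoot (0.913) and the mid section (0.913). Its values with the lower section and the R bulk shoot were 0.901 and 0.904. The root was farthest from both, at 0.714 with the tip and 0.709 with the base.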

How the data were processed

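Per the labels, polyadenylated RNA with an integrity number of at least 7 was converted to cDNA with SMARTer reagents and sequenced as paired 100 nt reads (Illumina). STAR and DESeq2 are named in the submitters' processing notes, without versions. Not given in the sources used here are the annotation, the genome build and how replicates were combined. The authors deposited log2 values per transcript, with 2 decimals; log2(FPKM + 1) was inferred from the values, whose FPKM sum to 884742 to 1110010 per sample over 40599 transcripts. FPKM scales with the total of a sample, so a few abundant genes move all others.

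From these, genes, size calls, medians and counts were computed with Python 3.11.15, pandas 2.3.3 and numpy 2.4.6, and the calls were checked on simulated data. Figures used matplotlib 3.10.9. Median-ratio factors used 9792 genes at FPKM 1 in all samples. The genes named are, per direction, the called gene with the largest difference and the most abundant other called gene, and the 2 most abundant uncalled genes. None of the IDs matched the 34587 genes of the reference table. Members, lists and rules were chosen with earlier results of these data known. The alternatives were 2 scalings, other pseudocounts, FPKM minimums and sizes, and summed transcripts.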

Additional observations from a re-analysis of the deposited data

How the results depend on the processing

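The direction of the balance, fewer genes higher than lower in the tip, was the same in all 12 settings run, while its size depended on them. Median-ratio rescaling gave 150 higher and 347 lower (30.2% higher), which held 133 of the 155 tip-higher genes and all 240 base-higher genes. Equal sums gave 169 and 251. With a log2 difference of 1 there were 759 higher and 805 lower (48.5% higher), and on rescaled values, a combination chosen after seeing the data, 577 and 1197 (32.5%). With a difference of 3 there were 48 and 79, with a minimum FPKM of 20 there were 79 and 131, and with a pseudocount of 5 there were 58 and 98. A pseudocount of 0.1 gave 205 and 308, a minimum FPKM of 1 or none gave 174 and 261, and summed transcripts gave 160 and 252. Each setting called the genes anew, and over those sets the medians between R and V5 bulk shoots changed sign in some settings. For base-higher genes they were -0.30 with rescaling, -0.06 with a difference of 3, -0.03 with a minimum of 20 and -0.073 with a pseudocount of 5, against 0.06, and for tip-higher genes -0.062 with rescaling. The base-higher median for mid minus lower section was -0.03 with a difference of 1. The cause was not tested. No paired analysis was possible because each sample has 1 merged column, and for the same reason no replicate could be left out. Depth is unknown, so the counting error of genes near an FPKM of 5 is unknown too.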
